A study of Mus musculus with 14 samples.

Results

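Solute carriers are membrane proteins that move ions, metals, sugars, amino acids, vitamins and nucleotides across the plasma membrane and the membranes of mitochondria, the Golgi apparatus, the endoplasmic reticulum and lysosomes. Most work without splitting ATP themselves: they let a solute run down its gradient, exchange it for another, or couple it to sodium, protons or chloride. In the kidney they are best known from the tubule, where they reclaim filtered solutes, while mesangial cells, the contractile cells between the glomerular capillaries, use them for cell volume, pH, metal supply and metabolism.

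The genes described here are the 51 members of a set chosen by their own expression values. A member has a mouse symbol that starts with Slc and a digit and an RPKM (reads scaled to the length of the gene and to the reads of the cell) of at least 10 in at least 2 of 14 cells. Slc40a1, Slc11a2 and Slc8a1 were left out by name. The table held 35271 genes, of which 379 carried such a symbol, antisense transcripts and pseudogenes included. Of the 376 that remain without the 3 left out by name, 51 passed, 45 reached an RPKM of 10 in exactly 1 cell and 280 in 0 cells. Because expression chose the members, the counts and levels below are descriptions and carry no test. The share that passed was 13.6%, against 14.2% of all genes in the table and 22.3% of its 21396 protein-coding genes.

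The 14 cells came from the glomeruli of 1 wild-type male C57BL/6 mouse, 8 weeks old (the strain is spelled C56BL/6 in the sample labels). Bead-purified glomeruli were dissociated with enzymes, and the cells were captured, lysed and turned into cDNA on a Fluidigm C1 instrument. All cells belong to 1 untreated group, so no conditions were compared, and cells of 1 animal are not replicates. Cells are called by their titles, GL_M_ and a number.

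Recovered totals ran from 6598126 to 23815562 reads per cell, so an RPKM of 10 on a member rested on 96.7 reads or more, and a value of 0 allows an RPKM of at most 0.0102 to 0.310, the level of 3 reads, depending on gene and cell. Each cell had 6 to 8 of 8 mesangial markers at 10 or more. Endothelial markers reached 10 in 0 to 10 of 13 genes, with 10 in GL_M_30 and at most 5 in the others, and podocyte markers in 0 to 5 of 12, with 5 in GL_M_55 and at most 2 in the others. The endothelial genes were uneven: Eng (median RPKM 108) and Ehd3 (median RPKM 91.3) both passed 10 in 11 cells and Plvap in 8, while Cdh5 was above 0 in GL_M_30 alone, at 12.7, and Pecam1 reached at most 1.87 in any cell. Of 10 proximal tubule, 8 distal nephron and 8 leukocyte markers, 0 reached an RPKM of 1 in any cell.

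Member names do not all stand for carriers. Slc9a3r2 encodes a scaffold protein that binds the tails of transporters, and Slc4a1ap, picked out after its values were seen, encodes an adaptor protein. All 51 are annotated as protein-coding, and they lie on 19 chromosomes. Their exons had a median total length of 4869 bases, against 4027 for the 325 Slc genes that were not members. In 26 members under 1% of the transcript sequence recurred in transcripts of other genes, and in 5 it was over 20%, among them Slc38a6 (35.5%), Slc25a5 (33.8%), Slc33a1 (30.7%) and Slc39a1 (21.8%). The levels of these 5 are less certain, as is any gene whose exons overlap another gene.

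Promoters of some members with many cells or very high single values are printed first. They set the sequence before a transcript found in most cells (Slc25a5, Slc44a1, Slc39a1) beside that of one found in few (Slc35a1, Slc50a1, Slc25a39). RefSeq promoter entries (GRCm38.p6) existed for 37 of 51 members, not including Slc12a2. Stretches with more than a short run of annotated exon were not printed. This left out Slc25a3 and Slc35b1, which have entries and would otherwise be shown, so the display is partial. Each line below gives the 120 bases before the RefSeq start, 5′ to 3′ on the strand of the gene. Capitals mark a GC box (GGGCGG or its reverse complement) or a CCAAT box (CCAAT or its reverse complement), and overlapping matches run together. The gene annotation places exon on 20 of the bases shown for Slc39a1 and on 27 of those for Slc25a39, since its starts differ from those of RefSeq. They lie at chrX:36795477-36795596 on the plus strand (Slc25a5), chr4:53440293-53440412 plus (Slc44a1), chr3:90248072-90248191 plus (Slc39a1), chr4:34687439-34687558 minus (Slc35a1), chr3:89270571-89270690 minus (Slc50a1) and chr11:102407518-102407637 minus (Slc25a39).
Slc25a5: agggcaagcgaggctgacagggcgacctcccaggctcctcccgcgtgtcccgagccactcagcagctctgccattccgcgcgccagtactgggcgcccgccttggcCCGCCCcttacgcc
Slc44a1: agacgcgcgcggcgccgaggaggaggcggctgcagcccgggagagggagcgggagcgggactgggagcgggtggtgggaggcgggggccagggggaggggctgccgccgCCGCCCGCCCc
Slc39a1: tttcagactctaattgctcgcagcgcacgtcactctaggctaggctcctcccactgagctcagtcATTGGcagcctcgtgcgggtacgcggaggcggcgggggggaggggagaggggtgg
Slc35a1: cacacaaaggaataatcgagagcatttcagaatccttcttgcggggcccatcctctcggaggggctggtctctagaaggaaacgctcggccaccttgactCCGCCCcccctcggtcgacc
Slc50a1: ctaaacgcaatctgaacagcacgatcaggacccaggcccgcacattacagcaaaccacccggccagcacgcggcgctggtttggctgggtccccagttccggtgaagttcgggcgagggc
Slc25a39: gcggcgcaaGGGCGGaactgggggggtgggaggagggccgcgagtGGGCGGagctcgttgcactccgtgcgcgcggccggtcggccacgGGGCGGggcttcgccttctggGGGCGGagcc

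Over the 250 bases before the start, 26 of the 37 members with an entry (70.3%) held a GC box on either strand. The same was true of 61.7% of the 3933 entries for genes past the same expression threshold, and of 32.9% of all 27025 genes with an entry. A CCAAT box was in 11 members (29.7%), against 35.4% and 34.5%, and the TATA box TATAAA in 3 members (8.11%), against 6.38% and 13%. In the 120 bases shown, Slc25a39 held 4 GC boxes and Slc50a1 held neither motif. Slc44a1, at 10 or more in 9 cells, had 38 CG dinucleotides in the 250 bases and Slc25a39, in 3 cells, had 35, while Slc25a5, in 12 cells, had 14 and Slc35a1, in 2 cells, had 13. These matches describe letters and do not locate a bound factor.

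Most members were at an RPKM of 10 or more in a few cells and below it in the others. Of the 714 values (51 genes in 14 cells), 37.4% were 0, 24.1% lay above 0 but below an RPKM of 1, 10.8% lay from 1 up to 10, and 27.7% were 10 or more, with 13.7% at 100 or more. A member reached 10 in a median of 3 cells. Counted by cells, 22 members were at 10 or more in exactly 2, 18 in 3 or 4, 6 in 5 to 8, and 5 in 9 or more, and 0 members in all 14. The 5 widest members made up 9.80% of the set, against 12.5% of all 5013 genes past the same threshold, and the 22 narrowest 43.1%, against 30.7%. The count of 5 fell to 3 when any 1 of GL_M_29, GL_M_36, GL_M_47, GL_M_55, GL_M_75 or GL_M_85 was left out, since Slc44a1 and Slc25a3 were each in exactly 9 cells and both were on in these 6. Of the 198 values at 10 or more, 98 were at 100 or more and 15 at 1000 or more.

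**Figure D1:**
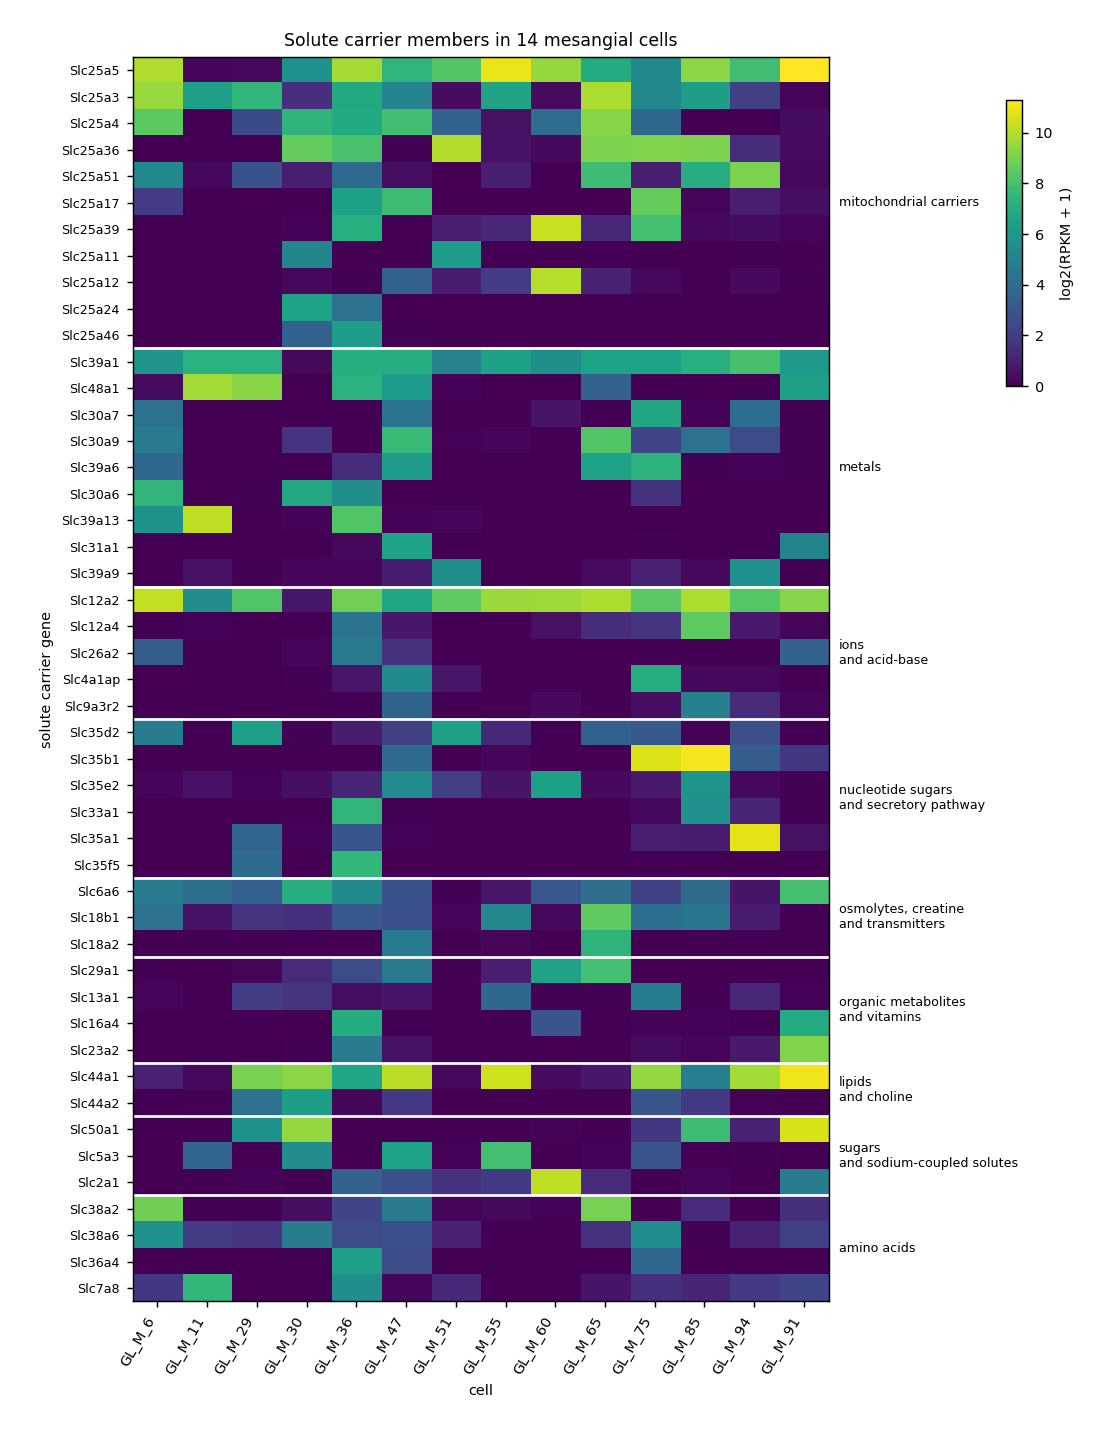
Level of 47 of the 51 members (rows, grouped by class) in each of the 14 cells (columns), as log2(RPKM + 1) by colour. Slc12a2 and Slc39a1 form nearly unbroken bands with a gap at GL_M_30, while 36 of the 47 rows are at an RPKM of 10 or more in 2 to 4 cells.

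**Figure D2:**
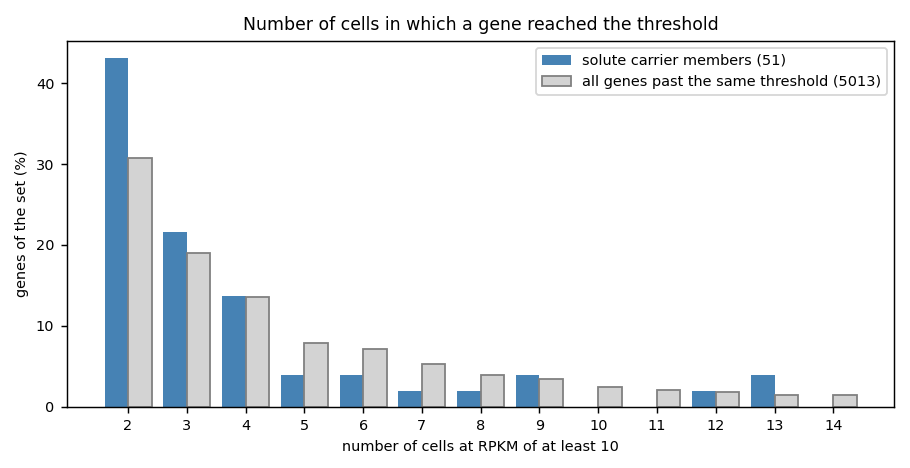
Share of genes (y axis, percent) by the number of cells in which they reached an RPKM of 10 (x axis), for the 51 members (blue) and all 5013 genes past the same threshold (grey). The bar at exactly 2 cells is 43.1% for members and 30.7% for all such genes.

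Carriers of ions and of acid and base were led by Slc12a2, the sodium-potassium-chloride cotransporter that brings chloride into cells and takes part in volume control. It was the highest member by median. Its RPKM had a median of 420.2 and reached 1222 in GL_M_6, and it was at 10 or more in 13 of 14 cells. The exact 95% Clopper-Pearson interval of that share was 66.1% to 99.8%, which covers the sampling of these cells only. It treats cells of 1 mouse as independent draws, and this same count helped choose the gene, so it is no test. The 13 cells ran from 46.7 in GL_M_11 upward, and GL_M_30 stood apart at 0.614. On the log2(RPKM + 1) scale the level was 8.14 ± 2.50 (mean ± SD, n = 14 cells of 1 mouse). Slc12a2 (ENSMUSG00000024597) lies on GRCm38 chromosome 18 from 57878678 to 57946821 on the plus strand, and 0% of its sequence recurred elsewhere.

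The potassium-chloride cotransporter Slc12a4, which moves chloride out of cells, was narrower. It was at 360.0 in GL_M_85 and 19.2 in GL_M_36, and at most 2.21 elsewhere.

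Other genes of this class reached 10 in 2 cells each. Slc26a2, a sulfate transporter, was at 24.8 in GL_M_36 and 10.9 in GL_M_91. The scaffold gene Slc9a3r2 was at 29.4 in GL_M_85 and 11.4 in GL_M_47, and Slc4a1ap at 130.1 in GL_M_75 and 41.4 in GL_M_47. Bicarbonate transporters of family SLC4 proper were absent from the set. The closest by its second-highest cell, Slc4a7, missed it with 10.9 in GL_M_91 and 8.46 in GL_M_51. Slc4a8 reached 10 in GL_M_47 alone, at 81.3.

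**Figure D3:**
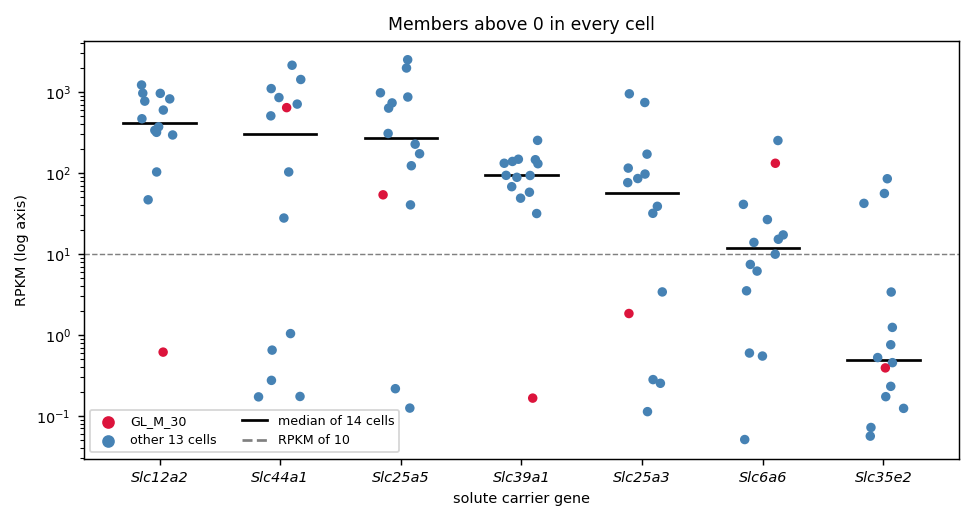
RPKM (log axis) of the 7 members above 0 in every cell, 1 point per cell, with the median of the 14 cells as a black line, the RPKM of 10 as a dashed line and GL_M_30 in red. Slc12a2 and Slc39a1 each have 13 cells above the dashed line and GL_M_30 below 1, while Slc44a1 has 9 cells above it and 5 near or below 1.

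Metal carriers gave 9 of the 51 members. That is 28.1% of the 32 genes of this class in the table, against 13.6% of the 376 Slc genes and 22.3% of protein-coding genes. Slc39a1, which imports zinc at the plasma membrane, had the smallest SD of the 7 members above 0 in every cell. Its RPKM had a median of 93.4 and a highest value of 253 in GL_M_94, and 13 cells lay between 31.6 and 253. GL_M_30 again stood apart, at 0.166. The level was 6.15 ± 1.87 on the log2 scale (SD, n = 14 cells). Slc39a1 (ENSMUSG00000052310) lies on chromosome 3 from 90248172 to 90253612, plus strand. In GL_M_30, where Slc12a2 and Slc39a1 were both below 1, 10 of 13 endothelial markers were at 10 or more with a summed RPKM of 4128, against 8.34 to 2075 in the other cells. Their part in these low values was not tested.

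Other zinc importers were on in fewer cells. Slc39a6 was at 151 in GL_M_75, 92.9 in GL_M_65 and 71.6 in GL_M_47, with 4 cells at 10 or more, all 4 of which also had Slc39a1. Slc39a13, a zinc transporter of the secretory pathway linked to connective tissue, was at 1172 in GL_M_11, 299 in GL_M_36 and 52.5 in GL_M_6, and below 1 in the other 11 cells. Slc39a9 was at 52.2 in GL_M_94 and 46.9 in GL_M_51 but also had 10 cells with traces between 0 and 1.

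Slc30a9, Slc30a7 and Slc30a6, zinc transporters of organelle membranes from family SLC30, followed the same pattern. Slc30a9, a mitochondrial member of its family, was at 10 or more in 4 cells, with 299 in GL_M_65 and 194 in GL_M_47. Slc30a7, a Golgi zinc transporter, was also in 4, at 106 in GL_M_75, 19.1 in GL_M_47, 18.3 in GL_M_6 and 15.7 in GL_M_94. Slc30a6, its Golgi relative, was in 3, at 173 in GL_M_6, 110.2 in GL_M_30 and 47.5 in GL_M_36.

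For heme and copper, Slc48a1, which moves heme out of lysosomes, was at 10 or more in 6 cells, at 836 in GL_M_11 and 621 in GL_M_29, 149 in GL_M_36, 84.3 in GL_M_91, 71.5 in GL_M_47 and 10.6 in GL_M_65. The other 8 cells were at 0.253 or lower, so the values on each side of the limit were far apart. Slc31a1, the copper importer, was at 92.7 in GL_M_47 and 33.3 in GL_M_91 and at most 0.189 elsewhere.

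Mitochondrial carriers of family SLC25 gave the most members, 12 of 48 genes in the table. That is 25%, against 13.6% of the 376 Slc genes and 22.3% of protein-coding genes. At least 1 of the 12 was at 10 or more in each of the 14 cells. Slc25a5, which exchanges ADP for ATP across the inner membrane, had a median RPKM of 268, the highest single value of all members, 2507 in GL_M_91, and 12 cells at 10 or more, from 40.4 in GL_M_75 upward. The exceptions, GL_M_11 at 0.125 and GL_M_29 at 0.217, were far below. Its level was 7.35 ± 3.49 on the log2 scale (SD, n = 14 cells). Slc25a5 (ENSMUSG00000016319) lies on chromosome X from 36795651 to 36798807, plus strand.

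Slc25a4, the second ADP/ATP exchanger, had a median of 11.9 and was at 10 or more in 8 cells, with 619.5 in GL_M_65 and 353 in GL_M_6 at the top and 10.8 in GL_M_51 at the bottom. All 8 were among the 12 cells with Slc25a5. The 2 cells with Slc25a5 below 10 also had Slc25a4 below 10, 0 in GL_M_11 and 4.87 in GL_M_29. Slc25a4 was higher than Slc25a5 in GL_M_29 (4.87 against 0.217), GL_M_30 (162 against 53.8), GL_M_47 (235 against 173) and GL_M_65 (619.5 against 123). It lies on chromosome 8 from 46206797 to 46211284, minus strand.

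Slc25a3, which brings in the phosphate that ATP synthesis needs, passed 10 in 9 cells, with a median RPKM of 57.4, and was at 951 in GL_M_65 and 743 in GL_M_6. It was lowest in GL_M_91 at 0.113, the cell with the highest Slc25a5, and at 0.253 in GL_M_60 and 0.281 in GL_M_51. GL_M_11 and GL_M_29, where Slc25a5 was below 10, had Slc25a3 at 85.5 and 171. Each of the 14 cells therefore had Slc25a3 or Slc25a5 at 10 or more, and 7 had both. This pairing was picked out after the values were seen. Slc25a3 (ENSMUSG00000061904) lies on chromosome 10 from 91116574 to 91124059, minus strand.

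Slc25a36, a carrier of pyrimidine nucleotides, had high and low values far apart. It was at 266 to 1014 in 6 cells, with the highest value in GL_M_51, and at most 1.75 in the other 8. Slc25a51, the carrier that brings NAD into mitochondria, was at 10 or more in 5 cells, at 535 in GL_M_94, 217 in GL_M_65, 129 in GL_M_85, 41.3 in GL_M_6 and 13.4 in GL_M_36. GL_M_29 followed at 6.28, and the other cells were below 1.

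Other carriers of the family were at 10 or more in 2 or 3 cells. Slc25a39, a glutathione carrier, was at 1279 in GL_M_60 and next at 238 in GL_M_75 and 134 in GL_M_36. Slc25a12, the aspartate-glutamate carrier of the malate-aspartate shuttle, was at 1056 in GL_M_60 and passed only through GL_M_47 at 10.2. Slc25a17, a peroxisomal carrier, was at 394 in GL_M_75, 214 in GL_M_47 and 86.7 in GL_M_36.

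A further 3 members of the family were all on in GL_M_30, the cell with the most endothelial markers, whose part in them was not tested. Slc25a24, a carrier of ATP-magnesium and phosphate, was at 92.5 in GL_M_30 and 18.2 in GL_M_36. Slc25a11, the oxoglutarate carrier, was at 71.4 in GL_M_51 and 34.9 in GL_M_30, and both genes were listed at 0 in the other 12 cells. Slc25a46, an outer membrane protein of mitochondrial dynamics, was at 79.8 in GL_M_36 and 10.5 in GL_M_30.

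Slc44a1, a choline transporter, had the largest SD of the 7 members above 0 in every cell. It was at 10 or more in 9 cells (interval of the share 35.1% to 87.2%, with the same limits as for Slc12a2). The median RPKM was 306, with 2143 in GL_M_91, 1429 in GL_M_55 and 1103 in GL_M_47. The lowest of the 9 was GL_M_85 at 27.8. The other 5 cells, GL_M_6, GL_M_11, GL_M_51, GL_M_60 and GL_M_65, ran from 0.172 to 1.04, and the level of 5.95 ± 4.49 on the log2 scale (SD, n = 14 cells) reflects both groups. Slc44a1 (ENSMUSG00000028412) lies on chromosome 4 from 53440413 to 53622478, plus strand. Its relative Slc44a2 was at 77.0 in GL_M_30 and 17.9 in GL_M_29, cells that also had Slc44a1.

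Osmolyte and transmitter carriers included Slc6a6, which takes up taurine, a solute that cells use in volume control. It was above 0 in every cell and at 10 or more in 7, with a median of 11.9, 252 in GL_M_91 and 132 in GL_M_30, and 0.0511 in GL_M_51. Its values spread without a gap around the limit: GL_M_29 had 9.94, GL_M_60 7.43 and GL_M_47 6.15. The level was 3.59 ± 2.31 on the log2 scale (SD, n = 14 cells).

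Slc18b1, a vesicular polyamine transporter, was at 10 or more in 5 cells, at 367 in GL_M_65 and between 16.2 and 36.4 in GL_M_6, GL_M_55, GL_M_75 and GL_M_85. Slc18a2, the vesicular monoamine transporter of aminergic cells, was at 164 in GL_M_65 and 23.5 in GL_M_47 and at most 0.104 elsewhere. Slc5a3, which takes up the osmolyte myo-inositol with sodium and is counted with the sugar carriers, was at 241 in GL_M_55, 93.2 in GL_M_47, 46.2 in GL_M_30 and 11.9 in GL_M_11. Counting Slc6a6 and Slc5a3 together, chosen as a pair after their values were seen, 9 cells had at least 1 of these organic osmolyte carriers at 10 or more and 2 cells, GL_M_11 and GL_M_30, had both.

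The class of sugar carriers gave 3 members from 31 genes (9.68%), against 13.6% of the 376 Slc genes. Slc2a1, the facilitated glucose transporter found in most cell types, was at 1178 in GL_M_60 but at 25.7 in GL_M_91 and 10.6 in GL_M_36, and below 10 in the other 11 cells, 5 of them at 0. Of the 13 genes of family SLC2 in the table, Slc2a10, which is no member, was the other one at 10 or more, with 38.9, also in GL_M_60. So 3 of 14 cells had a transcript of this family at that level. Slc50a1, a sugar transporter found at the Golgi, was at 1551 in GL_M_91, 724 in GL_M_30, 212 in GL_M_85 and 54.0 in GL_M_29.

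Amino acid carriers gave 4 members from 45 genes (8.89%), against 13.6% of the 376 Slc genes. In 7 of the 14 cells at least 1 of the 4 was at 10 or more. Slc38a2, a sodium-coupled importer of small neutral amino acids, was at 499.7 in GL_M_65, 453 in GL_M_6 and 23.8 in GL_M_47. Slc38a6 was at 55.4 in GL_M_6, 45.1 in GL_M_75 and 25.6 in GL_M_30, with 8 more cells between 1 and 10. Slc7a8, a light chain that exchanges large neutral amino acids, was at 177 in GL_M_11 and 48.4 in GL_M_36, with 6 more cells between 1 and 10. Its partner chain Slc3a2, no member, reached 10 in GL_M_60 alone, at 55.6. Slc36a4 was at 82.5 in GL_M_36 and 12.2 in GL_M_75. Of the 7 genes of family SLC1 in the table, which carry glutamate and neutral amino acids, 0 reached 10 in any of the 14 cells. If the cells of 1 mouse are treated as independent draws, this allows a share of cells of up to 23.2% for each (exact Clopper-Pearson).

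Carriers of the secretory pathway feed sugars and energy to glycosylation and protein folding. Slc35b1, which brings ATP into the endoplasmic reticulum, was at 2277 in GL_M_85 and 1606 in GL_M_75, then at 14.5 in GL_M_47. Slc35a1, which brings CMP-sialic acid into the Golgi, was at 1805 in GL_M_94 and 11.8 in GL_M_29. Slc35d2, a carrier of nucleotide sugars, was at 88.0 in GL_M_51, 82.2 in GL_M_29, 26.3 in GL_M_6 and 10.3 in GL_M_65. Slc35e2, above 0 in every cell, was at 85 in GL_M_60, 55.9 in GL_M_85 and 42.2 in GL_M_47, with a median of 0.491 and 9 cells below 1.

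The other members of this class had 2 cells each. Slc33a1, which imports acetyl-CoA into the endoplasmic reticulum, was at 170.3 in GL_M_36 and 50.9 in GL_M_85; 32.0% of its exon length overlaps a gene on the opposite strand, and no source used here says whether the counting used strand. Slc35f5 was at 177 in GL_M_36 and 14.8 in GL_M_29 and listed at 0 in the other 12.

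Carriers of organic metabolites and vitamins had the smallest share of members, 5 of 83 genes (6.02%), against 13.6% of the 376 Slc genes. In this class 74 genes were at 10 or more in 0 cells. Slc29a1, which equilibrates nucleosides such as adenosine, was at 243 in GL_M_65, 89.2 in GL_M_60 and 24.0 in GL_M_47. Slc23a2, the vitamin C transporter of most non-epithelial cells, was at 576 in GL_M_91 and 23.3 in GL_M_36. Slc16a4 was at 127 in GL_M_36 and 124 in GL_M_91, and at most 6.91 elsewhere.

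Slc13a1, the sodium-sulfate cotransporter known from the proximal tubule, was at 25.5 in GL_M_75 and 12.7 in GL_M_55 and above 0 in 12 of 14 cells. It belongs to a list of 24 carriers that mark nephron segments, of which 18 were listed at 0 in every cell, among them Slc34a1, Slc12a1 and Slc12a3. The only other one to reach 10 was Slc6a18, with 10.6 in GL_M_29 and above 0 in 11 cells. The 10 proximal tubule markers summed to an RPKM of at most 0.217 in any cell.

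**Figure D4:**
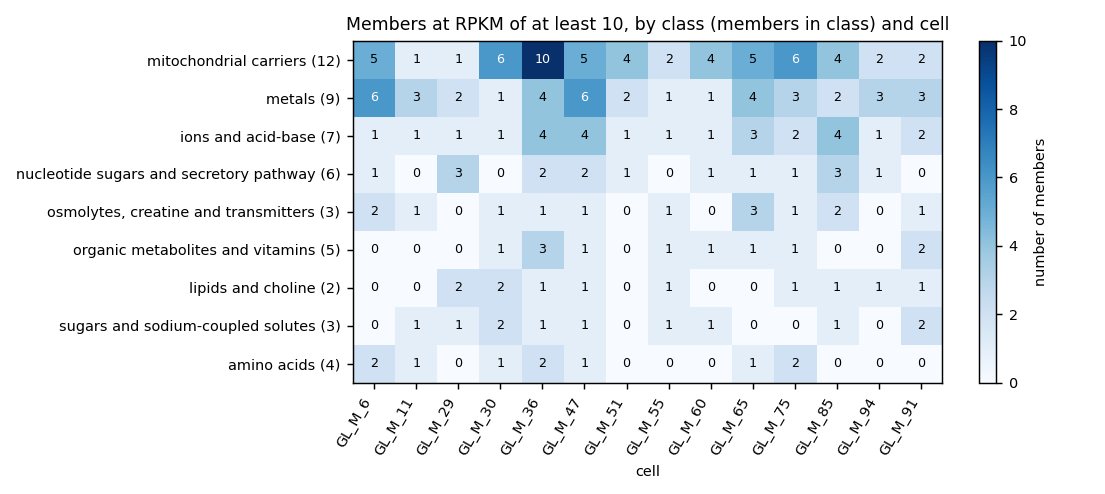
Number of members at an RPKM of at least 10 by class (rows, with the number of members in the class) and cell (columns). Mitochondrial, metal and ion carriers have at least 1 member in each of the 14 cells, and amino acid carriers in 7.

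Cells differed in how many members they carried. The number at 10 or more ran from 8 in GL_M_11, GL_M_51, GL_M_55 and GL_M_94 to 22 in GL_M_47 and 28 in GL_M_36, with a median of 14. GL_M_36 and GL_M_47 also had the most genes of any kind at that level, 3345 and 3100, against 1268 to 2017 in the other cells, and alone had members of all 9 classes. They had 5 and 4 of 13 endothelial and 2 each of 12 podocyte markers at 10 or more. The other cells had 0 to 10 endothelial and 0 to 5 podocyte markers at that level. The part of mixed cells was not tested. Relative to all genes at 10 or more, members made up 0.452% (GL_M_11) to 1.03% (GL_M_65 and GL_M_91), and GL_M_36 with 0.837% and GL_M_47 with 0.710% lay within that range. GL_M_51, the second most deeply read cell at 19037738 reads, had members of 4 classes.

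Members took 0.339% of the RPKM total in GL_M_29 and up to 1.38% in GL_M_91, and 1 gene often carried much of it. Slc25a36 alone made up 51.9% of the member total in GL_M_51, and Slc39a13 46.9% in GL_M_11. GL_M_91, with 13 members at 10 or more, had the highest level of 5 members, Slc25a5, Slc44a1, Slc50a1, Slc23a2 and Slc6a6. GL_M_65 held the highest level of 7 members, and GL_M_29 of 0.

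**Figure D5:**
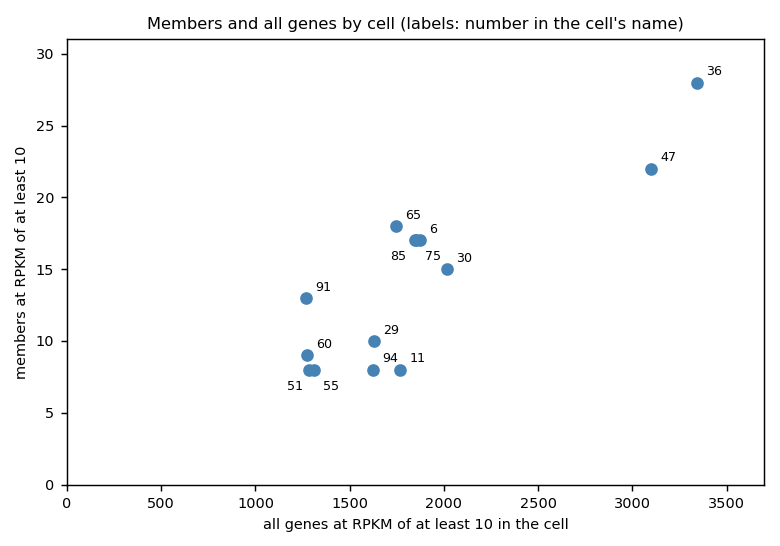
Members at an RPKM of at least 10 (y axis) against all genes at that level (x axis), 1 point per cell, labelled by the number in its name. GL_M_36 and GL_M_47 lie apart at 28 and 22 members and 3345 and 3100 genes.

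The limit of 2 cells decided many memberships. Just inside it, by the second-highest cell, were Slc25a12 (10.2), Slc25a46 (10.5), Slc26a2 (10.9) and Slc9a3r2 (11.4), and just outside Slc4a7 (8.46), Slc43a2 (8.40), Slc36a1os (8.13) and Slc25a23 (6.99). Without GL_M_36 and GL_M_47, 34 of the 51 members would pass, a choice made after the data were seen. Without GL_M_30 and GL_M_55, 45 would pass, and the 6 lost included Slc13a1, Slc25a11, Slc25a24, Slc25a46 and Slc44a2. Genes outside the set could be high in 1 cell, such as Slc35f6 at 1073 in GL_M_29, Slc25a15 at 599 in GL_M_30 and Slc35b4 at 494 in GL_M_30.

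Partner genes of the carriers, from a list of 16, showed the same unevenness, and 13 reached 10 in some cell. Atp1b2, a beta chain of the sodium pump whose gradient drives sodium-coupled carriers, passed 10 in 11 cells (median RPKM 78.8), and Atp1b3, another beta chain, in 6. Txnip, which promotes removal of glucose transporters from the cell surface, passed 10 in 10 cells (median RPKM 67.9), and Mpc1, a subunit of the mitochondrial pyruvate carrier, in 7. Of the kinases that activate Slc12a2, Wnk1 was at 10 or more in 5 cells, Stk39 in 4 and Oxsr1 in 1.

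Carriers under other names were listed too, and 12 of 20 reached 10 in some cell. Slco2a1, which takes up prostaglandins, passed 10 in 11 cells and was at 1.57 or higher in all 14 (median RPKM 49.7), whereas 0 of the 51 members were at 1 or more in every cell. Mtch2 of the mitochondrial outer membrane was at 10 or more in 7 cells, the uncoupling protein gene Ucp2 in 6, with 1355 in GL_M_60, and Slco3a1 in 4.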

How the data were processed

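Single-cell cDNA of 14 mesangial cells of 1 mouse was sequenced. The deposited values are RPKM per Ensembl gene, made by the authors; per the submitters' processing notes, the tools were TopHat2 2.0.12 and HTSeq 0.6.1 and the build mm10. None of the sources used here gives the annotation, the handling of reads that map to several places, strand use, any cell filter or any removal of doublets. No doublet caller was run. Symbols, places and exon lengths are from GENCODE M21 (GRCm38, which mm10 denotes); 34488 of 35271 IDs had a symbol. The depth of each cell came from the spacing of low RPKM values at genes with 1 transcript, where 84.7% to 89.7% of values below 50 reads came out within 0.02 of a whole read; on simulated data all 14 totals came back within 0.2%. Shared sequence is the share of 50-base stretches of a gene's transcripts that recur in those of another gene on either strand. Intervals and floors cover counting error only, and the cDNA was amplified without stated molecular identifiers. Levels are log2(RPKM + 1), given as mean ± SD over cells for members above 0 in every cell. Cells of 1 animal are not replicates, so no test was made. Members, classes and lists were chosen with earlier results of these data known. Named with values were up to 5 members a class by number of cells, all in 9 or more cells, the 6 highest single values, the 4 genes on each side of the threshold, members of the nephron and scaffold lists, and the 4 widest genes of each partner list; 4 members and some listed genes are not reported here one by one, though they count in the totals, and Slc6a18, Slc34a1, Slc12a1, Slc12a3, Slc3a2, Slc2a10, Slc35f6, Slc25a15, Slc35b4 and the kinases were added after their values were seen. Analysis used Python 3.11.15, pandas 2.3.3 and numpy 2.4.6. No 2 cells held identical values. Alternatives were other thresholds, cell numbers, cells left out, rescaled values and genes with little shared sequence.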

Additional observations from a re-analysis of the deposited data

How the results depend on the processing

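The number of members followed the threshold. It was 91 at an RPKM of at least 1, 61 at 5 and 39 at 20, and 96 for at least 1 cell and 29 for at least 3 cells, in place of 51. Leaving out each cell in turn gave 40 to 51 members, lowest without GL_M_36, and 3 to 5 members at the threshold in at least 9 cells, with a median of 2 to 3 cells per member. That number of wide members, 5, was 10 at an RPKM of at least 1, 3 without GL_M_30 and GL_M_55, 3 without GL_M_36 and GL_M_47 (added after seeing the data) and 3 among genes with under 20% shared sequence, which drops Slc25a5 and Slc39a1. With fewer cells, a count of at least 9 is harder to reach by construction. By class, amino acid carriers had 7 members at a limit of 5, and ion carriers 4 and choline carriers 1 at a limit of 20. Rescaling each cell to a common total raised all values and gave 59 members, which held all 51. A pseudocount of 0.1, or the log2 of the median, moved the level of the 7 members above 0 in every cell by less than their SD. That is a wide limit, since these SDs ran from 1.87 to 4.49. The log2 of the median put Slc44a1 at 8.26 in place of 5.95. A pseudocount of 0.1 put Slc35e2 at 0.45 in place of 1.74, so these levels depend on the choice. No paired analysis was possible because all cells form 1 group. Depth limits the zeros: 3 reads correspond to an RPKM of up to 0.310.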
